A study of Homo sapiens with 10 samples.

Results

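Interferon-stimulated genes and genes of RNA sensing were described after knockdown of DNMT1 or HDAC3. The cells were MM.1S, an established line of human multiple myeloma. The set was a list of 55 genes named for their known roles, and 53 of them were measured among 19775 genes with a named probe set. STAT2 and TDRD7 were not analysed here. Cells were infected with lentivirus carrying a short hairpin RNA, and RNA of the whole culture was taken at 48 h. The 10 arrays formed 5 groups of 2: a hairpin against luciferase (shLuc, the control), 2 hairpins against HDAC3 (shHDAC3#1, shHDAC3#2) and 2 against DNMT1 (shDNMT1#1, shDNMT1#2). Every group, the control included, thus carried a lentiviral hairpin, and no uninfected cells were part of the data used here. DNMT1 copies DNA methylation onto new DNA, and HDAC3 is a histone deacetylase of co-repressor complexes.

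Type I interferons bind a cell-surface receptor that signals through JAK kinases. A complex that holds IRF9 then enters the nucleus and binds a short DNA element, the interferon-stimulated response element, in front of many antiviral genes. The interferons themselves are switched on when sensors such as MDA5 (IFIH1) meet double-stranded RNA, which can come from a virus or from a cell's own retroviral elements. A broad interferon response is known for raising MX1, IFIT1, ISG15, OAS1 and similar genes together.

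The large rises were those of single genes, beside small changes in most of the list. With DNMT1 knocked down, TRIM22 was 3.46-fold and CXCL10 2.73-fold above shLuc, while 47 of the 53 genes stayed within 0.5 of shLuc on the log2 scale. Of the 53 genes, 9 rose (17.0%) and 7 fell (13.2%). Among all 19775 genes, 6.66% rose and 13.5% fell. The share that rose was thus above the background, and the share that fell was near it. This balance depended on the probe sets read. With the probe sets of each gene averaged, 5 rose and 5 fell, beside 16.1% of all genes called. Without probe sets of a kind that can also bind related transcripts, 3 rose and 7 fell of the 40 genes left, beside 16.3%. All 4 DNMT1 arrays lay above both shLuc arrays for 24 genes (45.3%) and below both for 7 (13.2%), against 20.2% and 13.9% of all genes. The median change was 0.12 for the list and 0.07 for all genes. With HDAC3 knocked down, 2 genes rose (3.77%) and 17 fell (32.1%), against 3.96% and 15.3% of all genes, and the median was -0.05 against 0.05. All 4 HDAC3 arrays lay above both shLuc arrays for 8 genes (15.1%) and below both for 12 (22.6%), against 22.1% and 15.8% of all genes. A call here is an adjusted p under 0.05 in limma, with Benjamini-Hochberg adjustment over all genes, and a change is a difference of log2 signals with its standard error (SE).

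The knockdowns were also compared with each other. In DNMT1 arrays 16 of the 53 genes (30.2%) were higher than in HDAC3 arrays, against 6.0% of all genes. None was lower in limma, against 3.59% of all genes, and 3 were lower at an unadjusted p under 0.05. The difference was positive for 46 genes (86.8%), against 55.2% of all genes, but its median was only 0.19, against 0.02. All DNMT1 arrays lay above all HDAC3 arrays for 9 genes (17.0%) and below them for 1, IFI27 (1.89%), against 3.55% and 1.65% of all genes. Leaving out TRIM22, CXCL10, IFITM1 and ISG20, chosen after their values were seen, left a median of 0.16 over 49 genes. Both knockdowns were set against the same 2 shLuc arrays. The difference between the knockdowns takes no mean from these arrays, which enter it only through the shared estimate of the spread.

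**Figure D1:**
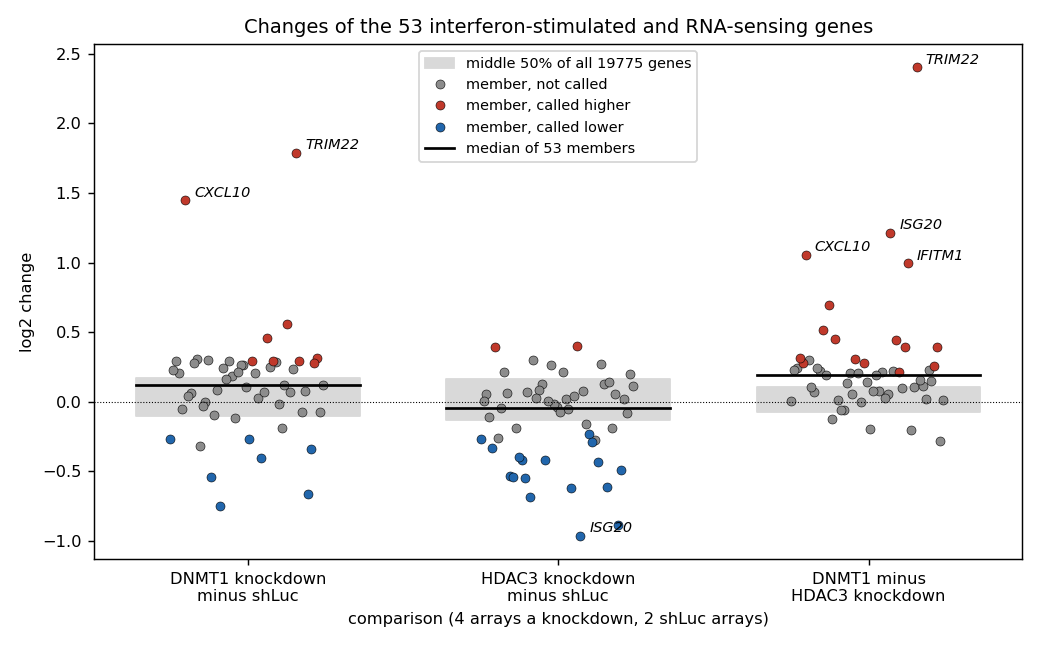
Log2 change of each of the 53 genes (points) in 3 comparisons, with the list's median (black line) and the middle of the distribution of all 19775 genes (grey band). TRIM22 lies at 1.79 against shLuc in DNMT1 arrays and at 2.40 against HDAC3 arrays, while most genes lie close to the grey band.

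The arrays of the series bear on these counts in several ways. Among the targeted genes, DNMT1 fell by 2.39 ± 0.10 (SE) in its own knockdown (adjusted p = 9.5e-12) and HDAC3 fell by 1.18 ± 0.16 in its own (adjusted p = 1.2e-05). DNMT1 also fell by 0.92 ± 0.10 in HDAC3 arrays (adjusted p = 1.6e-06), so that the knockdowns were not separate in this gene. HDAC3 read 7.26 and 6.61 in shLuc, 7.09 and 6.53 with shDNMT1#1, and 6.39 and 6.28 with shDNMT1#2. Its shLuc arrays thus lay apart, and both shDNMT1#2 arrays lay below them. The SD of all log2 values averaged 1.94 in shLuc arrays and 1.85 to 1.91 in the hairpin groups, and the signal of ACTB at its 3′ end minus that at its 5′ end, a sign of RNA quality, was 1.00 in shHDAC3#1 against 0.71 to 0.74 elsewhere. With the array SD as a covariate, 3 genes of the list were called in DNMT1 arrays and 0 in HDAC3 arrays, beside 0.602% and 0.577% of all genes, and 20 in the difference between the knockdowns, beside 13.8%. Both shLuc arrays had a higher SD (1.94 and 1.93) than any hairpin array (at most 1.91). In the contrasts with shLuc, this covariate and the knockdown can therefore not be fully told apart. The part of RNA quality in the results was not tested. Of 16 measured markers of T cells, monocytes, fibroblasts and mature B cells, 0 were called in these 3 limma comparisons, with at most 2 at an unadjusted p under 0.05. Of 7 plasma cell markers, 5 fell and 1 rose in DNMT1 arrays, 2 fell and 1 rose in HDAC3 arrays, and 4 were lower and 0 higher in DNMT1 than in HDAC3 arrays. Beside them, 13.5% and 6.66%, 15.3% and 3.96%, and 3.59% and 6.0% of all genes were lower and higher. The part of these markers in the results was not tested. In such RNA, fewer cells with a transcript and less transcript per cell cannot be told apart. The labels do not state that the 2 arrays of a group are separate cultures, so the tests measure only how these arrays vary, which can be technical. They name shLuc as the control of the HDAC3 hairpins, and the sources used here do not give how the DNMT1 arrays were processed relative to it.

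Stretches of promoter are shown for 9 genes because they carry the letters of the interferon-stimulated response element whether or not the gene moved. RefSeq windows (GRCh38.p14, 250 bases before to 50 after a start) were matched for 43 of the 53 genes, and not for DHX58, GBP2, IFIT2, IFITM2, IRF7, MX2, OAS2, OASL, TRIM22 and USP18. The letters searched were GAAANNGAAA on either strand, which reads TTTCNNTTTC on the other, and overlapping matches were joined. They stood in 29 of the 43 genes (67.4%) and in 1195 of 27305 genes with a window of that length (4.38%). Capitals mark the match, and sequences run 5′ to 3′ on the strand of the gene. The first 4 genes were higher in DNMT1 than in HDAC3 arrays.
CXCL10: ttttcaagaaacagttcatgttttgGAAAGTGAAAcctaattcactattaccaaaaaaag
IFITM1: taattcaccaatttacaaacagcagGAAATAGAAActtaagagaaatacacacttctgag
ISG15: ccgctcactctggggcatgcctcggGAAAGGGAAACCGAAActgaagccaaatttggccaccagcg
ISG20: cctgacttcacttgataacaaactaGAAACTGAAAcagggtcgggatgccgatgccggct
The next 3 genes were called in none of the 3 comparisons between knockdowns or with shLuc.
IFIT1: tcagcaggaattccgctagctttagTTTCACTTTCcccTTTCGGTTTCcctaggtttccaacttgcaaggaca
IFI44L: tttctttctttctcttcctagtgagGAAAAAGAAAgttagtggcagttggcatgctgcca
IFI6: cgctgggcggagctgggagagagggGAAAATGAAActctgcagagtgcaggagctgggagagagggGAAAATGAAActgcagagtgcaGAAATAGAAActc
The last 2 genes fell, SAMD9 in both knockdowns and GBP1 in HDAC3 arrays.
SAMD9: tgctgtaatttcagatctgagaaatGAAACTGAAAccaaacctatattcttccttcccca
GBP1: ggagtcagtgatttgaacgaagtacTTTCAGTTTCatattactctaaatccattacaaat

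These stretches lie before the start of each gene, at chr4:76023684-76023743 (minus strand) for CXCL10, chr11:313975-314034 (plus) for IFITM1, chr1:1013359-1013424 (plus) for ISG15 and chr15:88638922-88638981 (plus) for ISG20. Those of the genes that were not called lie at chr10:89392482-89392554 (plus) for IFIT1, chr1:78620259-78620318 (plus) for IFI44L and chr1:27672273-27672373 (minus) for IFI6. SAMD9 is at chr7:93118081-93118140 (minus) and GBP1 at chr1:89065301-89065360 (minus). The letters were found among genes that rose, that fell and that were not called. They were present in 6 of 6 genes with a window that rose in DNMT1 arrays, 4 of 7 that fell and 19 of 30 that were not called. In HDAC3 arrays they were present in 10 of 16 genes that fell and 17 of 25 that were not called. A window held a median of 8 CpG dinucleotides, the sites that DNMT1 methylates, against 14 over all windows. The windows shown ranged from 0 in IFI44L to 20 in ISG15, and those of CXCL10 and IFITM1 held 3 each. A match is a description of letters and not a bound site, and methylation was not measured.

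Sensors of foreign nucleic acid, counted together with the RNA-editing enzyme ADAR, numbered 10 measured genes. In DNMT1 arrays 2 sensors rose and 3 fell, beside 6.66% and 13.5% of all genes. In HDAC3 arrays 0 rose and 4 fell, beside 3.96% and 15.3%. EIF2AK2 encodes PKR, a kinase that binds double-stranded RNA and stops translation. Its log2 signal was 7.35 and 7.13 in shLuc, 6.59 and 6.58 with shHDAC3#1, 6.07 and 6.16 with shHDAC3#2, 6.70 and 6.47 with shDNMT1#1, and 6.50 and 6.63 with shDNMT1#2. All 8 knockdown arrays lay below both shLuc arrays. EIF2AK2 fell by 0.66 ± 0.10 (SE) in DNMT1 arrays (adjusted p = 5.6e-05) and by 0.89 ± 0.10 in HDAC3 arrays (adjusted p = 1.7e-06). It fell with each of the 4 hairpins, and its other probe sets, which were not tested, changed by -0.28 and -0.26 in DNMT1 arrays and by -0.39 and -0.14 in HDAC3 arrays.

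IFIH1, which encodes the long double-stranded RNA sensor MDA5, also fell in both knockdowns. Its arrays read 7.30 and 7.08 in shLuc, 6.79 and 6.79 with shHDAC3#1, 6.72 and 6.77 with shHDAC3#2, 7.01 and 6.87 with shDNMT1#1, and 6.51 and 6.17 with shDNMT1#2. No knockdown array reached the shLuc arrays, and the shDNMT1#2 arrays were the lowest. The fall was 0.54 ± 0.10 (SE) in DNMT1 arrays (adjusted p = 0.00067) and 0.42 ± 0.10 in HDAC3 arrays (adjusted p = 0.0065), while 2 much dimmer probe sets gave 0.11 and -0.23, and -0.05 and -0.17. The DNMT1 hairpins differed, with shDNMT1#2 lower than shDNMT1#1 by 0.60 ± 0.12 (adjusted p = 0.0016). Without shLuc replicate 1, neither call of IFIH1 held, at -0.43 (adjusted p = 0.061) and -0.31 (adjusted p = 0.23), whereas EIF2AK2 stayed called at -0.55 (adjusted p = 0.011) and -0.78 (adjusted p = 0.0009). ADAR, the enzyme that edits adenosines in double-stranded RNA, changed by -0.27 ± 0.08 in both knockdowns (adjusted p = 0.024 with DNMT1 and 0.022 with HDAC3). By hairpin it changed by -0.48 with shHDAC3#1, -0.06 with shHDAC3#2, -0.20 with shDNMT1#1 and -0.33 with shDNMT1#2. Its HDAC3 arrays overlapped shLuc.

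IFI16, a sensor of DNA named here after its values were seen, moved in opposite directions with the HDAC3 hairpins. It read 8.90 and 8.77 in shLuc, 7.74 and 7.71 with shHDAC3#1, 9.22 and 9.36 with shHDAC3#2, 8.83 and 8.70 with shDNMT1#1, and 8.82 and 8.79 with shDNMT1#2. The shHDAC3#1 arrays lay below all others and the shHDAC3#2 arrays above all others. Its change was -1.11 ± 0.09 (SE, 2 arrays against 2) with shHDAC3#1 (adjusted p = 1.6e-08) and 0.45 ± 0.09 with shHDAC3#2 (adjusted p = 0.0019). The mean of -0.33 over both hairpins therefore describes neither of them. Its 2 further probe sets changed by -1.15 and -1.19 with shHDAC3#1 and by 0.38 and 0.42 with shHDAC3#2.

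Among the oligoadenylate synthetase genes, whose products are activated by double-stranded RNA, the changes were small. OAS1 read 6.74 and 6.80 in shLuc, 6.72 and 6.89 with shHDAC3#1, 6.75 and 6.76 with shHDAC3#2, 6.99 and 7.11 with shDNMT1#1, and 6.91 and 6.94 with shDNMT1#2. The 4 DNMT1 arrays lay above the other 6, but by little. The change of 0.21 ± 0.09 (SE) in DNMT1 arrays was not called (adjusted p = 0.11, 95% interval 0.02 to 0.40), and that in HDAC3 arrays was 0.01 ± 0.09 (interval -0.18 to 0.20). A second probe set of OAS1 gave 0.03 in DNMT1 arrays and -0.59 in HDAC3 arrays, so that the probe sets disagree on HDAC3. OAS3 (0.30 ± 0.10, adjusted p = 0.036) and its relative OASL (0.29 ± 0.08, adjusted p = 0.018) rose in DNMT1 arrays, although their second probe sets gave 0.04 and -0.11. OAS2, DHX58 and DDX60 were not called with any hairpin. A second, dimmer probe set of OAS2, which was not tested, gave 0.07 in DNMT1 and -0.41 in HDAC3 arrays. By hairpin it gave -0.91 with shHDAC3#1 and 0.08 with shHDAC3#2. The third probe set of OAS2 gave -0.08 in DNMT1 and -0.03 in HDAC3 arrays.

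**Figure D2:**
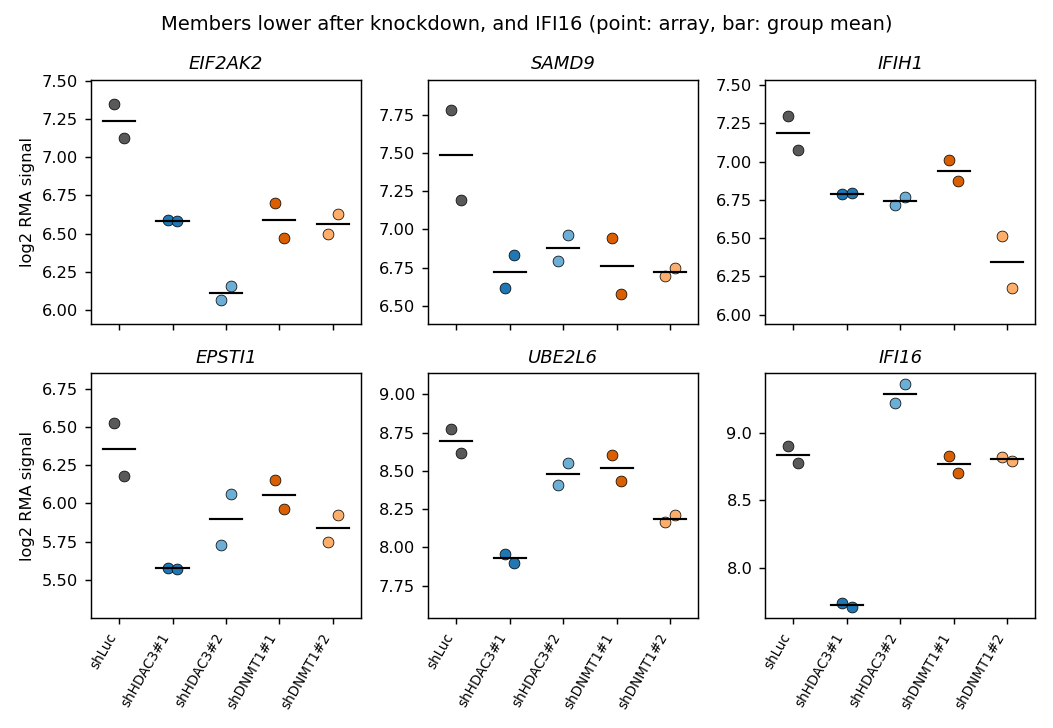
Log2 signal of 5 genes that fell after knockdown, and of IFI16, in each array (points) with group means (bars), for shLuc and the 4 hairpins. EIF2AK2 and SAMD9 lie below both shLuc arrays with every hairpin, whereas IFI16 lies below shLuc with shHDAC3#1 and above it with shHDAC3#2.

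Transcription factors and nuclear body proteins of the list, 5 genes, had no call in DNMT1 arrays and 3 falls in HDAC3 arrays, where 15.3% of all genes fell. In limma 1 of the 5 had an unadjusted p under 0.05 in DNMT1 arrays. IRF9 encodes the DNA-binding part of the complex that answers type I interferon. It read 5.64 and 5.14 in shLuc, 4.65 and 4.74 with shHDAC3#1, 5.17 and 5.42 with shHDAC3#2, 5.47 and 5.59 with shDNMT1#1, and 5.77 and 5.92 with shDNMT1#2. The shLuc arrays lay apart and overlapped both the shHDAC3#2 and the shDNMT1#1 arrays, while every DNMT1 array lay above every HDAC3 array. IRF9 was 0.70 ± 0.10 (SE) higher in DNMT1 than in HDAC3 arrays (adjusted p = 8.1e-05). Against shLuc it changed by 0.30 ± 0.13 in DNMT1 arrays (adjusted p = 0.096) and by -0.39 ± 0.13 in HDAC3 arrays (adjusted p = 0.033). These rest on the shLuc arrays: without shLuc replicate 1 the values were 0.55 (adjusted p = 0.024) and -0.14 (adjusted p = 0.7), and the HDAC3 call was also lost without shHDAC3#1 replicate 1 (-0.37, adjusted p = 0.089) and without shHDAC3#2 replicate 1 (-0.33, adjusted p = 0.12).

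IRF7, the factor that amplifies interferon production, was not called. Its values were 6.22 and 6.23 in shLuc, 6.28 and 6.22 with shHDAC3#1, 6.16 and 6.32 with shHDAC3#2, 6.32 and 6.86 with shDNMT1#1, and 6.27 and 6.29 with shDNMT1#2. A single shDNMT1#1 array stood high, and the other 9 arrays lay between 6.16 and 6.32. The change was 0.21 ± 0.12 (SE) in DNMT1 arrays (adjusted p = 0.22, 95% interval -0.04 to 0.46). Without shDNMT1#1 replicate 1 it was 0.34 and called (adjusted p = 0.015). SP110, a nuclear body protein, read 7.17 and 7.03 in shLuc, 6.70 and 6.21 with shHDAC3#1, 6.82 and 6.98 with shHDAC3#2, 6.97 and 6.98 with shDNMT1#1, and 6.88 and 7.11 with shDNMT1#2. Only the shHDAC3#1 arrays were clearly low. SP110 fell by 0.42 ± 0.12 in HDAC3 arrays (adjusted p = 0.013), a call lost without shLuc replicate 1 (-0.35, adjusted p = 0.27), shHDAC3#1 replicate 2 (-0.30, adjusted p = 0.066) or shHDAC3#2 replicate 1 (-0.38, adjusted p = 0.053). The 4 further probe sets of SP110 disagreed, from -0.46 to 0.03 in HDAC3 arrays. Its neighbour SP100 fell by 0.29 there, with -0.41 to 0.16 over its further probe sets, and IRF1 was not called with any hairpin.

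CXCL10, the list's chemokine, attracts T cells that carry the receptor CXCR3, and it rose strongly with 1 hairpin of each target. Its arrays read 5.20 and 5.03 in shLuc, 4.92 and 4.70 with shHDAC3#1, 6.01 and 6.41 with shHDAC3#2, 5.76 and 5.63 with shDNMT1#1, and 7.54 and 7.33 with shDNMT1#2. The shDNMT1#2 arrays were the highest, the shHDAC3#2 arrays came next and above the shDNMT1#1 arrays, and the shHDAC3#1 arrays lay below shLuc. Against shLuc the change was 0.58 ± 0.14 (SE, 2 arrays against 2) with shDNMT1#1 (adjusted p = 0.0096), 2.31 ± 0.14 with shDNMT1#2 (adjusted p = 1.1e-10), -0.30 ± 0.14 with shHDAC3#1 (adjusted p = 0.11) and 1.09 ± 0.14 with shHDAC3#2 (adjusted p = 9.2e-06). The hairpins of 1 target differed by 1.73 ± 0.14 for DNMT1 (adjusted p = 1.4e-08) and by 1.39 ± 0.14 for HDAC3 (adjusted p = 2.4e-07).

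Averaged over hairpins, CXCL10 was 1.45 ± 0.12 (SE) higher in DNMT1 arrays (adjusted p = 3.2e-08) and 0.39 ± 0.12 higher in HDAC3 arrays (adjusted p = 0.025). DNMT1 arrays exceeded HDAC3 arrays by 1.05 ± 0.10 (adjusted p = 2.1e-07), yet both shHDAC3#2 arrays lay above both shDNMT1#1 arrays. With the hairpin as a random block, so that the difference between hairpins enters the error, the DNMT1 call was lost (adjusted p = 0.31). The HDAC3 call was lost without shLuc replicate 1 (0.48, adjusted p = 0.09), shLuc replicate 2 (0.31, adjusted p = 0.17), shHDAC3#1 replicate 1 (0.34, adjusted p = 0.096) or shHDAC3#2 replicate 2 (0.29, adjusted p = 0.11).

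Genes of ubiquitin, ISG15 and ADP-ribose transfer numbered 12, of which 3 rose and 2 fell in DNMT1 arrays (6.66% and 13.5% of all genes), and 0 rose and 4 fell in HDAC3 arrays (3.96% and 15.3% of all genes). Between the knockdowns, 5 of them were higher in DNMT1 arrays, beside 6.0% of all genes. TRIM22, an antiviral ubiquitin ligase, had the largest change of the list over a whole knockdown, while CXCL10 changed more with shDNMT1#2 alone. It read 4.83 and 4.58 in shLuc, 3.78 and 3.41 with shHDAC3#1, 4.52 and 4.68 with shHDAC3#2, 6.42 and 6.49 with shDNMT1#1, and 6.41 and 6.68 with shDNMT1#2. The 4 DNMT1 arrays lay close together and far above the other 6. The shHDAC3#1 arrays were the lowest, and the shHDAC3#2 arrays overlapped shLuc.

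TRIM22 rose by 1.79 ± 0.12 (SE) in DNMT1 arrays (adjusted p = 3.4e-09), with 1.75 ± 0.14 for shDNMT1#1 and 1.83 ± 0.14 for shDNMT1#2. The difference between these hairpins was 0.09 ± 0.14 (adjusted p = 0.76, 95% interval -0.21 to 0.38). Its rise in DNMT1 arrays was called in all 21 alternative settings that gave a value, from 1.64 to 1.91, including the hairpin as a random block (adjusted p = 0.046). In HDAC3 arrays TRIM22 fell by 0.61 ± 0.12 (adjusted p = 0.00094), called with shHDAC3#1 (-1.11 ± 0.14, adjusted p = 5e-06) and not with shHDAC3#2 (-0.11 ± 0.14, adjusted p = 0.7). That call was lost without shLuc replicate 1 (-0.49, adjusted p = 0.083). Between the knockdowns TRIM22 was 5.28-fold higher in DNMT1 arrays (log2 2.40 ± 0.10, adjusted p = 1.8e-12). Its 1 probe set is of a kind that can also bind related transcripts, so no second probe set was there to set beside it.

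TRIM5, an antiviral ligase whose gene lies next to TRIM22 on chromosome 11, was not called in DNMT1 arrays. It read 5.59 and 5.52 in shLuc, 4.95 and 4.87 with shHDAC3#1, 4.95 and 5.27 with shHDAC3#2, 5.90 and 5.45 with shDNMT1#1, and 5.42 and 5.33 with shDNMT1#2. The HDAC3 arrays were low, and the DNMT1 arrays spread around shLuc. TRIM5 changed by -0.03 ± 0.12 (SE) in DNMT1 arrays (adjusted p = 0.88, 95% interval -0.29 to 0.23). It fell by 0.54 ± 0.12 in HDAC3 arrays (adjusted p = 0.0032) and was 0.51 ± 0.10 higher in DNMT1 than in HDAC3 arrays (adjusted p = 0.0016). Its much dimmer second probe set, which was not tested, gave 0.04 in HDAC3 arrays and -0.07 between the knockdowns. The fall in HDAC3 arrays was not called without shLuc replicate 1 (-0.51, adjusted p = 0.09).

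ISG15, the ubiquitin-like protein that gives the pathway its tag, rose a little in DNMT1 arrays. Its signal was 7.61 and 7.56 in shLuc, 7.41 and 7.49 with shHDAC3#1, 7.53 and 7.60 with shHDAC3#2, 7.75 and 7.95 with shDNMT1#1, and 7.99 and 7.93 with shDNMT1#2. All DNMT1 arrays lay above the other 6 arrays. The rise was 0.32 ± 0.09 (SE, adjusted p = 0.013), and it was not called without shLuc replicate 1 (0.34, adjusted p = 0.077) or shLuc replicate 2 (0.29, adjusted p = 0.069). Between the knockdowns the difference was 0.40 ± 0.07 (adjusted p = 0.00059), and in HDAC3 arrays the change was -0.08 ± 0.09 (adjusted p = 0.54, 95% interval -0.26 to 0.10).

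Of the enzymes that attach ISG15, UBE2L6 fell and HERC5 was not called against shLuc. HERC5, its ligase, read 6.62 and 6.57 in shLuc, 6.54 and 6.66 with shHDAC3#1, 6.06 and 6.47 with shHDAC3#2, 7.02 and 6.69 with shDNMT1#1, and 6.80 and 6.98 with shDNMT1#2. All DNMT1 arrays were above the other 6, with a change of 0.28 ± 0.12 (SE) against shLuc (adjusted p = 0.09, 95% interval 0.04 to 0.53) and 0.45 ± 0.10 against HDAC3 arrays (adjusted p = 0.0035). UBE2L6, its conjugating enzyme, read 8.78 and 8.62 in shLuc, 7.96 and 7.90 with shHDAC3#1, 8.41 and 8.55 with shHDAC3#2, 8.61 and 8.44 with shDNMT1#1, and 8.17 and 8.21 with shDNMT1#2. Every knockdown array lay below both shLuc arrays, by most with shHDAC3#1 and shDNMT1#2. UBE2L6 fell by 0.34 ± 0.09 in DNMT1 arrays (adjusted p = 0.0069) and by 0.49 ± 0.09 in HDAC3 arrays (adjusted p = 0.00022). Without shLuc replicate 1 the DNMT1 value was -0.26 (adjusted p = 0.21). USP18, which removes ISG15, was not called with any hairpin.

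DTX3L, a ubiquitin ligase that works in a complex with PARP9, fell in HDAC3 arrays. It read 6.59 and 6.33 in shLuc, 5.38 and 5.88 with shHDAC3#1, 6.21 and 6.23 with shHDAC3#2, 6.57 and 6.35 with shDNMT1#1, and 5.99 and 5.68 with shDNMT1#2. The arrays of shHDAC3#1 and shDNMT1#2 were low, and those of shDNMT1#1 overlapped shLuc. The fall in HDAC3 arrays was 0.54 ± 0.13 (SE, adjusted p = 0.0053), and it was not called without shLuc replicate 1 (-0.41, adjusted p = 0.23) and turned to 0.13 (adjusted p = 1.0) with the array SD as a covariate. That covariate cannot be fully told apart from the contrast with shLuc. PARP9, the neighbour of DTX3L on chromosome 3, rose by 0.28 ± 0.10 in DNMT1 arrays (adjusted p = 0.049), although its second probe set gave -0.07. TRIM25, the ligase that acts on the sensor RIG-I, fell by 0.27 in DNMT1 arrays, with 0.02 for its second probe set. Of the remaining genes, HERC6 was called with shDNMT1#2 (0.37), and PARP14 and TRIM21 with no hairpin.

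**Figure D3:**
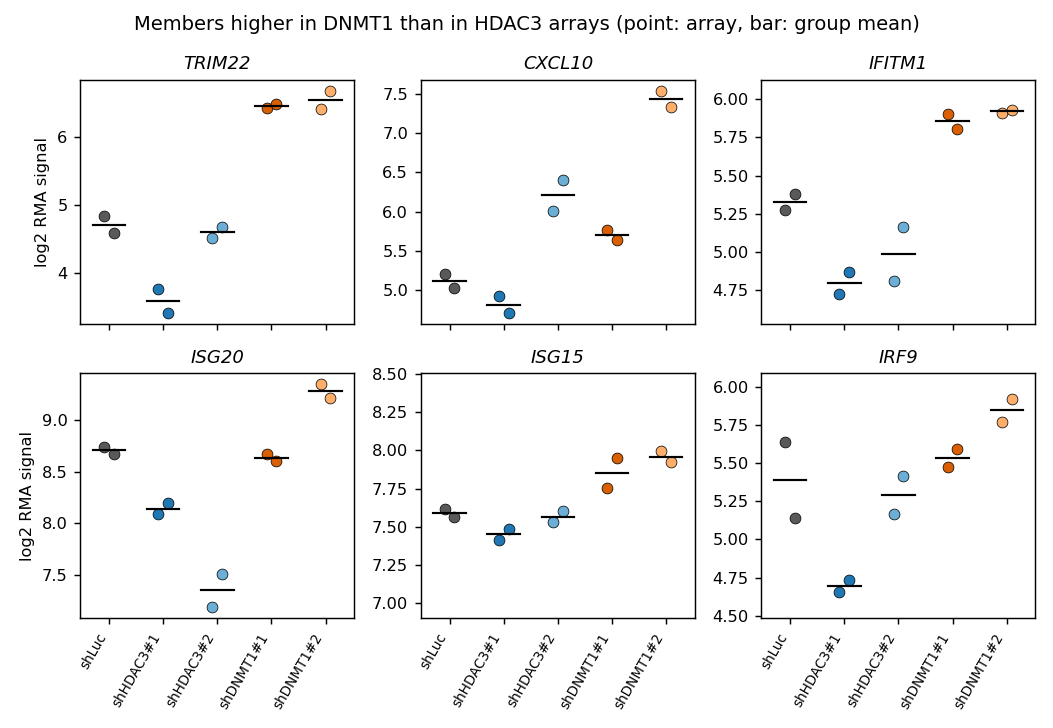
Log2 signal of 6 genes that were higher in DNMT1 than in HDAC3 arrays, in each array (points) with group means (bars), for shLuc and the 4 hairpins. TRIM22 is high with both DNMT1 hairpins, whereas CXCL10 is high with shDNMT1#2 and shHDAC3#2.

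Antiviral effectors made up the largest group, 25 genes. In DNMT1 arrays 3 effectors rose and 2 fell, beside 6.66% and 13.5% of all genes. In HDAC3 arrays 1 rose and 6 fell, beside 3.96% and 15.3%, and 7 were higher in DNMT1 than in HDAC3 arrays, beside 6.0%. IFITM1, a membrane protein that blocks viral fusion, read 5.27 and 5.38 in shLuc, 4.73 and 4.87 with shHDAC3#1, 4.81 and 5.17 with shHDAC3#2, 5.90 and 5.80 with shDNMT1#1, and 5.91 and 5.93 with shDNMT1#2. The 4 DNMT1 arrays lay above and the 4 HDAC3 arrays below shLuc, without overlap. IFITM1 rose by 0.56 ± 0.11 (SE) in DNMT1 arrays (adjusted p = 0.001) and was 0.99 ± 0.09 higher there than in HDAC3 arrays (adjusted p = 2e-07). It rose with both DNMT1 hairpins, by 0.53 and 0.59. Its fall of 0.43 ± 0.11 in HDAC3 arrays (adjusted p = 0.0085) was lost without shLuc replicate 1 (-0.49, adjusted p = 0.058), shLuc replicate 2 (-0.38, adjusted p = 0.077) or shHDAC3#2 replicate 1 (-0.35, adjusted p = 0.054), and the rise in DNMT1 arrays without shLuc replicate 1 (0.51, adjusted p = 0.05). The neighbouring genes IFITM2 and IFITM3 were not called with any hairpin.

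ISG20, an exonuclease that degrades RNA, fell with both HDAC3 hairpins. It read 8.74 and 8.67 in shLuc, 8.09 and 8.19 with shHDAC3#1, 7.19 and 7.51 with shHDAC3#2, 8.67 and 8.61 with shDNMT1#1, and 9.35 and 9.21 with shDNMT1#2. The shHDAC3#2 arrays were the lowest, the shDNMT1#1 arrays lay at or just under shLuc, and the shDNMT1#2 arrays stood above all others. ISG20 fell by 0.96 ± 0.09 (SE) in HDAC3 arrays (adjusted p = 1.8e-07) and was 1.21 ± 0.07 higher in DNMT1 arrays than there (adjusted p = 8.1e-10). In DNMT1 arrays the change of 0.25 ± 0.09 was not called (adjusted p = 0.059), and the hairpins differed by 0.64 ± 0.11 (adjusted p = 0.00019). It passed without shHDAC3#2 replicate 1 (adjusted p = 0.039) or replicate 2 (adjusted p = 0.04), at an unchanged 0.25. The second probe set of ISG20 gave 0.31 in DNMT1 and -1.20 in HDAC3 arrays.

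RSAD2, which encodes the antiviral enzyme viperin, rose in both knockdowns. Its arrays read 4.71 and 4.94 in shLuc, 5.36 and 5.16 with shHDAC3#1, 5.15 and 5.22 with shHDAC3#2, 5.20 and 5.37 with shDNMT1#1, and 5.42 and 5.14 with shDNMT1#2. All 8 knockdown arrays lay above both shLuc arrays and overlapped each other. The rise was 0.46 ± 0.12 (SE) in DNMT1 arrays (adjusted p = 0.0078) and 0.40 ± 0.12 in HDAC3 arrays (adjusted p = 0.019), with 0.18 and 0.06 for its second probe set. Neither was called without shLuc replicate 1, at 0.34 (adjusted p = 0.24) and 0.28 (adjusted p = 0.38), and the HDAC3 call was also lost without shHDAC3#1 replicate 1 (0.35, adjusted p = 0.078). CMPK2, its neighbour on chromosome 2, was not called with any hairpin.

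SAMD9, an antiviral factor that restricts poxviruses, fell with every hairpin. It read 7.78 and 7.19 in shLuc, 6.61 and 6.83 with shHDAC3#1, 6.79 and 6.96 with shHDAC3#2, 6.94 and 6.58 with shDNMT1#1, and 6.70 and 6.75 with shDNMT1#2. The shLuc arrays differed by 0.59, more than for any other gene of the list in that group, and all 8 knockdown arrays lay below them. SAMD9 fell by 0.75 ± 0.13 (SE) in DNMT1 arrays (adjusted p = 0.0003) and by 0.69 ± 0.13 in HDAC3 arrays (adjusted p = 0.00066). Without shLuc replicate 1 neither was called, at -0.45 (adjusted p = 0.074) and -0.39 (adjusted p = 0.14). A second probe set of SAMD9 changed by -0.06 in HDAC3 arrays and by less than that in DNMT1 arrays. SAMD9L, its neighbour, was called with shDNMT1#2 (0.42) and in no comparison of a whole knockdown.

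EPSTI1 and GBP1 were the other effectors that fell with both HDAC3 hairpins. EPSTI1 read 6.53 and 6.18 in shLuc, 5.58 and 5.57 with shHDAC3#1, 5.73 and 6.06 with shHDAC3#2, 6.15 and 5.97 with shDNMT1#1, and 5.75 and 5.93 with shDNMT1#2. All knockdown arrays lay below shLuc, with falls of 0.62 ± 0.12 (SE) in HDAC3 arrays (adjusted p = 0.00066) and 0.41 ± 0.12 in DNMT1 arrays (adjusted p = 0.02). Its second probe set gave -0.14 and -0.07. Without shLuc replicate 1 the changes in the first probe set were -0.44 (adjusted p = 0.088) and -0.23 (adjusted p = 0.47), and the DNMT1 call was also lost without shDNMT1#2 replicate 1 (-0.36, adjusted p = 0.064). With the array SD as a covariate the DNMT1 value turned to 0.025 (adjusted p = 0.99). This covariate cannot be fully told apart from the contrast with shLuc. GBP1, a guanylate-binding protein, read 5.13 and 5.22 in shLuc, 4.59 and 4.58 with shHDAC3#1, 4.80 and 4.52 with shHDAC3#2, 5.36 and 5.26 with shDNMT1#1, and 4.62 and 5.07 with shDNMT1#2. The HDAC3 arrays were low, and shDNMT1#2 fell between. GBP1 fell by 0.55 ± 0.12 in HDAC3 arrays (adjusted p = 0.0029) and was 0.45 ± 0.10 higher in DNMT1 than in HDAC3 arrays (adjusted p = 0.005). Its further, dimmer probe sets gave -0.64 to -0.02 in HDAC3 arrays.

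MX1 and IFIT1, which a broad interferon response is known to raise, were called in no comparison of a whole knockdown. MX1, a GTPase that traps viral components, read 5.18 and 4.91 in shLuc, 5.22 and 4.92 with shHDAC3#1, 5.10 and 5.16 with shHDAC3#2, 5.30 and 5.37 with shDNMT1#1, and 5.51 and 5.19 with shDNMT1#2. The DNMT1 arrays were slightly above shLuc and overlapped the HDAC3 arrays. Its change was 0.30 ± 0.12 (SE) in DNMT1 arrays (adjusted p = 0.089, 95% interval 0.04 to 0.55) and 0.05 ± 0.12 in HDAC3 arrays (interval -0.20 to 0.31). It was called without shDNMT1#2 replicate 2 (0.38, adjusted p = 0.044). IFIT1, which binds foreign RNA caps, read 5.18 and 5.17 in shLuc, 4.95 and 5.16 with shHDAC3#1, 5.63 and 5.77 with shHDAC3#2, 5.15 and 5.01 with shDNMT1#1, and 5.40 and 4.83 with shDNMT1#2. Only the shHDAC3#2 arrays stood high. IFIT1 changed by -0.08 ± 0.13 in DNMT1 arrays (adjusted p = 0.7, interval -0.35 to 0.20) and rose by 0.52 ± 0.15 with shHDAC3#2 (adjusted p = 0.026). Against HDAC3 arrays it was -0.28 (adjusted p = 0.12), and -0.42 (adjusted p = 0.0092) without shDNMT1#2 replicate 1.

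Of the other effectors, IFIT2 rose by 0.29 in DNMT1 arrays (adjusted p = 0.049, with 0.02 for its dimmer probe set), BST2 fell by 0.23 in HDAC3 arrays (adjusted p = 0.044), and IFIT5, IFI35 and MX2 were higher in DNMT1 than in HDAC3 arrays by 0.32, 0.28 and 0.39. IFIT3 was not called, with 0.16 ± 0.10 (SE) in DNMT1 arrays (95% interval -0.05 to 0.38). Its dimmer probe set gave -0.51 in DNMT1 and -1.0 in HDAC3 arrays. In all, 20 of the 53 genes were called in none of the 3 comparisons and with no hairpin: CMPK2, DDX60, DHX58, GBP2, IFI44, IFI44L, IFI6, IFIT3, IFITM2, IFITM3, IRF1, IRF7, LGALS3BP, MX1, OAS1, OAS2, PARP14, TRIM21, USP18 and XAF1. In the probe set tested for each, changes ran from -0.07 to 0.30 in DNMT1 arrays and -0.26 to 0.30 in HDAC3 arrays. In limma 6 and 2 of these changes had an unadjusted p under 0.05, all of them positive. These genes are the ones not called, and their 95% intervals reached up to 0.56 in DNMT1 arrays and 0.57 in HDAC3 arrays, and for single hairpins up to 0.65 with shDNMT1#1 and 0.71 with shHDAC3#1. IFI27 was called with shHDAC3#1 alone (0.35). The mean signal was under 5 for 9 genes of the list, among them IFI44, IFI44L, USP18 and IFI27, and RMA signals that dim can understate a change.

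**Figure D4:**
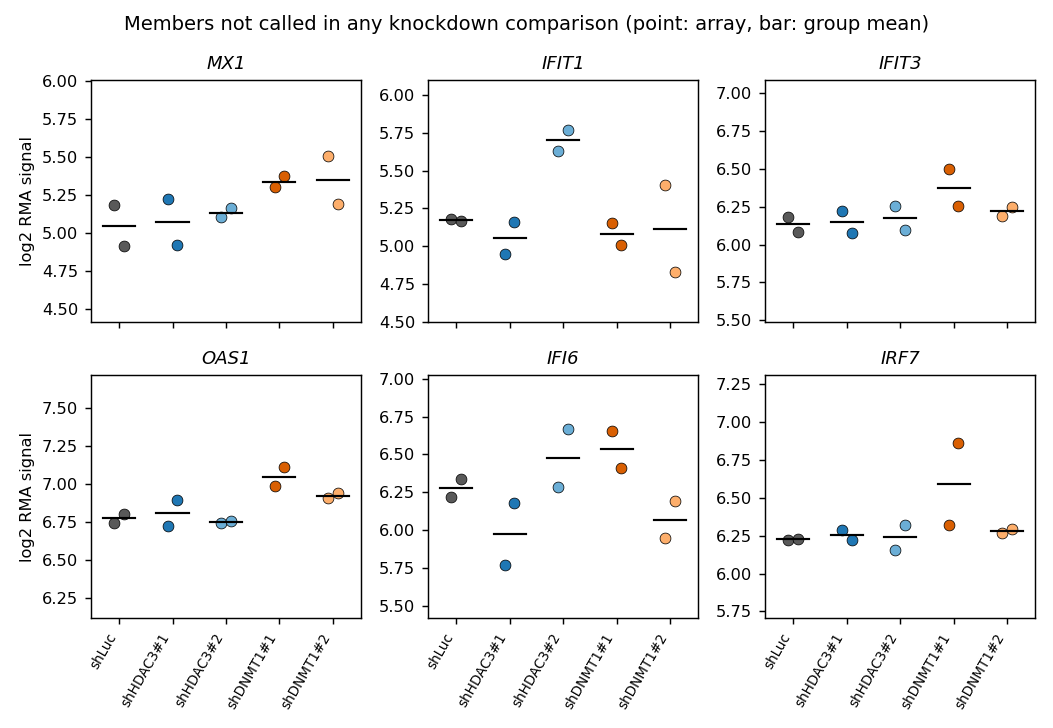
Log2 signal of 6 genes that were called in no comparison of a whole knockdown, in each array (points) with group means (bars), for shLuc and the 4 hairpins. IFIT1 stands high with shHDAC3#2, and IRF7 in a single shDNMT1#1 array.

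The calls of the 2 hairpins of a target overlapped in part. With shDNMT1#1, 4 genes of the list rose and 2 fell, against 1.34% and 6.81% of all genes, and with shDNMT1#2, 13 rose and 9 fell, against 11.6% and 15.2%. The genes that rose with both were CXCL10, IFITM1, RSAD2 and TRIM22, which are all 4 of shDNMT1#1's and 4 of the 13 of shDNMT1#2. EIF2AK2 and SAMD9 fell with both. With shHDAC3#1, 2 genes rose and 18 fell, against 7.83% and 16.6% of all genes, and with shHDAC3#2, 3 rose and 6 fell, against 1.31% and 9.54%. No gene rose with both HDAC3 hairpins in limma, and 6 fell with both: EIF2AK2, EPSTI1, GBP1, IFIH1, ISG20 and SAMD9. These were all 6 of shHDAC3#2's falls and 6 of the 18 of shHDAC3#1. Both hairpins of a target were set against the same 2 shLuc arrays. The share of all genes called with both hairpins was not counted, so no background stands beside these joint calls. Without shLuc replicate 1, 2 genes were called with shDNMT1#1, 10 with shDNMT1#2, 13 with shHDAC3#1 and 4 with shHDAC3#2, beside 2.66%, 11.1%, 10.1% and 5.10% of all genes. Without shDNMT1#1 replicate 1 the count for that hairpin was 10, beside 12.9% of all genes, and without shHDAC3#2 replicate 1 it was 5 for shHDAC3#2, beside 5.81%.

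Tested directly, the DNMT1 hairpins differed in 12 genes of the list, 4 higher and 8 lower with shDNMT1#2, against 3.57% and 8.39% of all genes. This count was 7 without shDNMT1#1 replicate 1, 5 without shDNMT1#2 replicate 1 and 4 without its replicate 2. The HDAC3 hairpins differed in 14 genes, 12 higher and 2 lower with shHDAC3#2, against 8.85% and 3.75% of all genes, and in 8 genes without shHDAC3#1 replicate 1 or without shHDAC3#2 replicate 2. In each of these fits with 1 array left out, fewer of all genes were called as well. Besides CXCL10, IFI16 and TRIM22, the genes that were higher with shHDAC3#2 included IFIT1, IRF9, DTX3L and UBE2L6. The map of changes shows the 18 falls called with shHDAC3#1 beside the 6 called with shHDAC3#2.

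**Figure D5:**
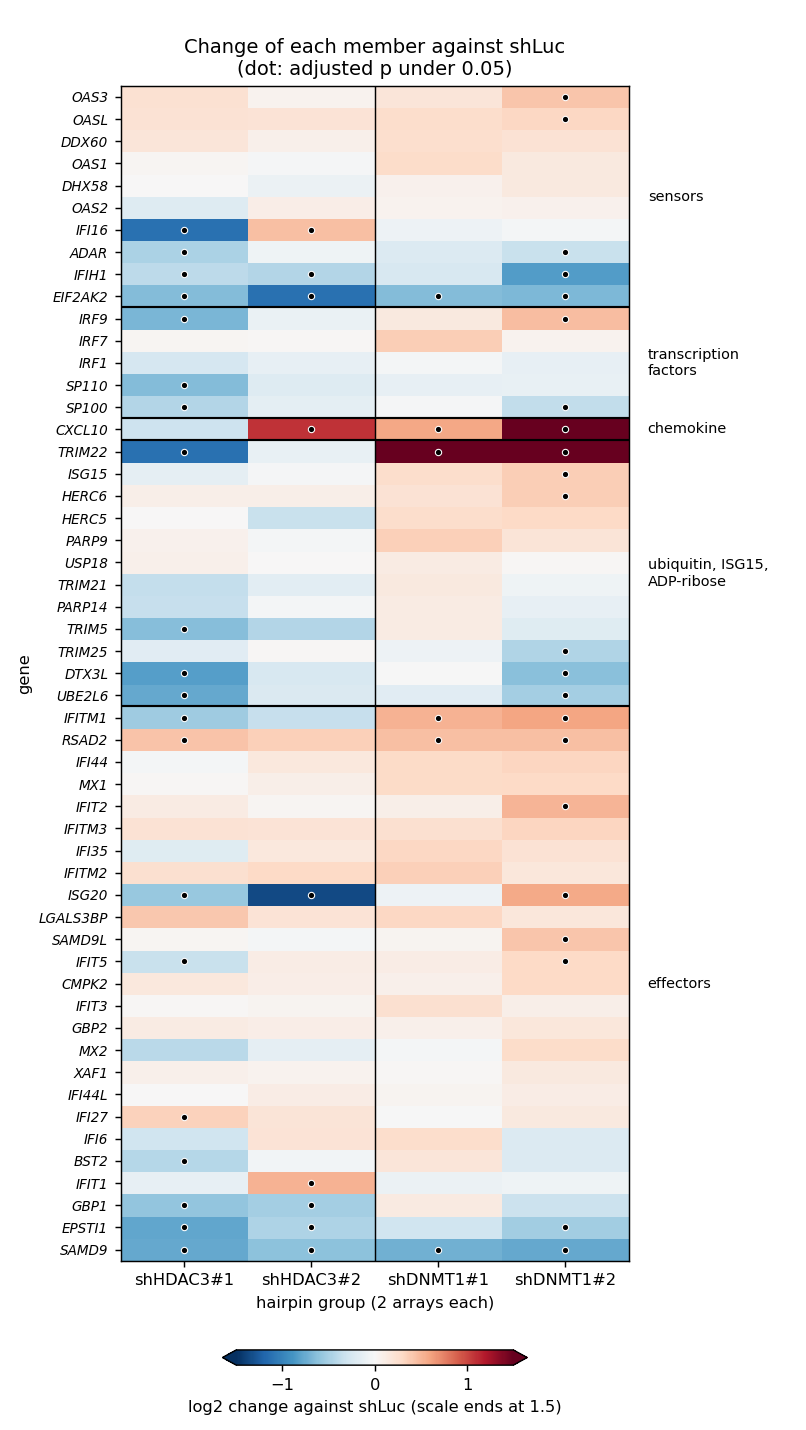
Log2 change against shLuc of each of the 53 genes (lines, grouped by role) with each of the 4 hairpins (columns), on a colour scale that ends at 1.5 in either direction, where a dot marks an adjusted p under 0.05. TRIM22 is red with both DNMT1 hairpins, EIF2AK2 and SAMD9 are blue in all 4 columns, and shHDAC3#1 holds 18 of the blue dots.

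Counts against shLuc rested in large part on 1 control array. Without shLuc replicate 1, 4 genes of the list were called in DNMT1 arrays, where TRIM22, CXCL10 and IRF9 were higher and EIF2AK2 lower, and 6.90% of all genes. In HDAC3 arrays 4 genes were then called, all lower (EIF2AK2, ISG20, UBE2L6 and GBP1), and 7.13% of all genes. The difference between the knockdowns takes no mean from the shLuc arrays. Leaving 1 of them out could therefore not move its values, and changed only the shared estimate of the spread. With the hairpin as a random block, TRIM22 was called in DNMT1 arrays, 0 genes in HDAC3 arrays, and TRIM22 and IFITM1 in the difference. In that order, 0.157%, 0.369% and 0.0303% of all genes were called.

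Genes upstream of the list were read from a second list of 38 interferon, receptor, signalling and sensor genes. Of these 35 were measured, and the others were not analysed here. Each was read from its brightest probe set alone. Further probe sets, which IFNAR1, IFNAR2, IFNGR1, JAK1, SAMHD1 and PIAS1 among others have, were not read. In DNMT1 arrays 1 of the 35 rose and 7 fell, beside 6.66% and 13.5% of all genes. In HDAC3 arrays 0 rose and 8 fell, beside 3.96% and 15.3%. Between the knockdowns 3 were higher and 3 lower in DNMT1 arrays, beside 6.0% and 3.59%. Of 7 interferon genes, 1 rose in DNMT1 arrays, the dim IFNK (0.36 ± 0.11 SE, adjusted p = 0.028), and none was called in HDAC3 arrays. IFNB1, the interferon made first after RNA sensing in many cells, changed by -0.11 ± 0.11 in each knockdown (95% interval -0.33 to 0.11). Its mean signal was 3.43, and of the interferon genes only IFNL1 had a mean above 5. Signals that dim can understate a change. Of 6 receptor chains, 3 fell in DNMT1 arrays, IL10RB by 0.81, IFNAR1 by 0.40 and IFNAR2 by 0.24, and IFNGR1, IFNGR2 and IFNLR1 were not called. In HDAC3 arrays 4 fell, IFNAR1 by 0.95, IL10RB by 0.73, IFNGR1 by 0.59 and IFNGR2 by 0.44, and IFNAR2 and IFNLR1 were not called. By hairpin, 1 chain fell with shDNMT1#1, 4 with shDNMT1#2, 5 with shHDAC3#1 and 2 with shHDAC3#2. Beside them, 6.81%, 15.2%, 16.6% and 9.54% of all genes fell. IL10RB alone fell with all 4 hairpins. The kinase JAK1 fell by 0.48 in DNMT1 and 0.43 in HDAC3 arrays, and was called with shDNMT1#1 (-0.69) and shHDAC3#1 (-0.63) but not with shDNMT1#2 (-0.27) or shHDAC3#2 (-0.22). The factor IRF2 fell by 0.55 and 0.63, and was called with shDNMT1#2 (-0.92) and shHDAC3#1 (-1.01) but not with shDNMT1#1 (-0.18) or shHDAC3#2 (-0.24). The hairpins of each target differed in both genes (limma, adjusted p at most 0.014). TBK1, the kinase that activates IRF3, fell by 0.52 in DNMT1 arrays, with -0.90 for shDNMT1#2 and an uncalled -0.14 for shDNMT1#1, which differed by 0.75 (adjusted p = 0.00057). AIM2, a DNA sensor, fell by 0.66 in HDAC3 arrays and with both HDAC3 hairpins. Of 4 genes that restrain the pathway, SAMHD1 fell by 0.45 in DNMT1 arrays and PIAS1 by 0.33 in HDAC3 arrays. On a list of 8 retroviral envelope and related genes, 7 were measured and 0 were called in limma in any comparison, with 0 at an unadjusted p under 0.05. Their changes ran from -0.07 to 0.14 in DNMT1 arrays. ERVFRD-1, ERVW-1, ERV3-1 and ERVV-1 had a mean signal under 5, where a change can be understated.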

How the data were processed

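Affymetrix 3′ arrays were deposited as log2 signals, 54675 probe sets each, which the authors, per the submitters' processing notes, made by RMA. This method corrects background, quantile-normalizes arrays and summarises probes. The sources used here give neither its version nor whether all arrays were run together. That the scale is log2 was read from the values. Precision is limited by the number of arrays.

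By the platform annotation, 41097 probe sets had 1 symbol, 1801 had several and 11777 had none, and only the first kind was named. Of these, 41043 matched RefSeq (GRCh38.p14) by gene ID, with 0 symbols changed. Where a gene had several, the probe set brightest on average over 10 arrays stood for it, which left 19775 genes. Other probe sets are given as values without a test, and only for genes of the list.

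A single limma 3.58.1 model (R 4.3.3, lmFit, eBayes with trend) held all 5 groups, with 5 residual degrees of freedom. Hairpins of a target were averaged, so the SE holds no variation between them. Tests were two-sided, adjusted with Benjamini-Hochberg over all genes, and called at an adjusted p under 0.05. The test was checked on simulated data.

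The genes and lists were chosen with earlier results of these data known. Values in every array are given for genes called in any of the 3 knockdown comparisons with an absolute change of at least 0.4 there, and in any case for CXCL10, TRIM22, ISG15, MX1, IFIT1, OAS1, IRF7 and IRF9. Settings tried besides these were: genes with a mean of at least 5, averaged probe sets, no probe sets of a kind that can cross-hybridize, quantile normalization, centring, no trend, array weights, only the arrays compared, a replicate block, the hairpin as a random block, a target as 1 group, the array SD as a covariate, and each array left out in turn.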

Additional observations from a re-analysis of the deposited data

Results flagged for a closer look

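For 3 genes of the list the hairpins of 1 target differed by at least 1 on the log2 scale at an adjusted p under 0.05, a test of the difference itself. CXCL10 was higher with shDNMT1#2 than with shDNMT1#1 by 1.73, and higher with shHDAC3#2 than with shHDAC3#1 by 1.39. IFI16 was higher with shHDAC3#2 than with shHDAC3#1 by 1.57. TRIM22 was higher with shHDAC3#2 than with shHDAC3#1 by 1.00, whereas the DNMT1 hairpins differed in it by 0.09.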

How the results depend on the processing

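With the settings reported, 16 genes of the list were called in DNMT1 arrays, 19 in HDAC3 arrays and 16 between the knockdowns. Beside them, 20.2%, 19.2% and 9.59% of all genes were called. In that order the counts were 3, 1 and 2 with the 4 arrays of a target as 1 group, beside 1.65%, 1.83% and 0.147% of all genes. They were 1, 0 and 2 with the hairpin as a random block (correlation 0.351), beside 0.157%, 0.369% and 0.0303%. The array SD as a covariate cannot be fully told apart from the contrasts with shLuc. It gave 3 and 0 against shLuc, beside 0.602% and 0.577% of all genes. It gave 3 for shDNMT1#1, 2 for shDNMT1#2, 1 for shHDAC3#1, 5 for shHDAC3#2 and 2 between the DNMT1 hairpins. Beside these, 2.81%, 0.602%, 1.14%, 2.63% and 3.39% of all genes were called. Averaging the probe sets of each gene gave 10 in DNMT1 arrays (5 higher and 5 lower), beside 16.1% of all genes. It gave 6 between the DNMT1 hairpins, beside 9.95%. Using only the arrays of these hairpins gave 7 between them, beside 9.23%. The settings reported gave 12 between these hairpins. Without probe sets that can cross-hybridize, 13 genes had no value and 40 were left. Of the 13, 8 (IFI16, IFI35, IFIT5, IFITM1, ISG15, SP110, TRIM22 and TRIM5) were among the 16 between the knockdowns. The counts were then 10 in DNMT1 arrays (3 higher and 7 lower), 7 between the knockdowns and 13 for shHDAC3#1. Beside them, 16.3%, 7.89% and 19.3% of all genes left were called. Leaving out 1 array gave 4 to 19 in DNMT1 arrays, 4 to 20 in HDAC3 arrays, 10 to 16 between the knockdowns, 2 to 10 for shDNMT1#1, 10 to 22 for shDNMT1#2, 13 to 23 for shHDAC3#1, 4 to 10 for shHDAC3#2, 4 to 12 between the DNMT1 hairpins and 8 to 15 between the HDAC3 hairpins. The share of all genes that was called also moved when 1 array was left out. Quantile normalization turned the 9 higher and 7 lower genes in DNMT1 arrays into 11 and 4, and centring into 6 and 7. Centring turned 13 and 9 with shDNMT1#2 into 9 and 10. Quantile normalization turned 3 and 6 with shHDAC3#2 into 2 and 7, and 4 and 8 between the DNMT1 hairpins into 5 and 5. Of 1365 values of single genes under alternatives, 1213 kept their side of the threshold, 132 lost the call, 16 gained it and 4 reversed. A change of direction was counted as reversed only where a call was made before or after it. The 1213 therefore include values that changed direction without a call. The reversals were OAS1 in HDAC3 arrays with the mean of its probe sets (-0.29) and without those that can cross-hybridize (-0.59), where its second probe set enters, and, with the array SD as a covariate, EPSTI1 in DNMT1 arrays (0.025) and DTX3L in HDAC3 arrays (0.13); the cause of the last 2 was not tested. The labels do not state whether arrays with the same replicate number belong together, and the settings reported did not pair them. Over 10 pairs of groups, correlations of deviations ran from -0.34 to 0.27, with 2 over 0.1. With the replicate block the counts were 14 in DNMT1 arrays, 18 in HDAC3 arrays and 13 between the knockdowns. Beside them, 18.1%, 17.3% and 8.61% of all genes were called.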
